A study of Mus musculus with 12 samples.

Results

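The interaction of a triple gene repression with cell state was examined in mouse embryonic stem cells: for each gene, the effect of the repression in epiblast-like cells (EpiLCs) minus its effect in embryonic stem cells (ESCs). The contrast was (3×KD EpiLCs − Neg EpiLCs) − (3×KD ESCs − Neg ESCs) on the log2 scale, so a positive difference means that 3×KD cells stood higher relative to Neg in EpiLCs than in ESCs. All 12 of the 12 RNA-seq libraries of the series entered it, 3 in each of the 4 groups. A total of 25446 of 57180 genes reached a sum of 10 counts and could be tested, and 2553 of them had a difference with a Benjamini-Hochberg adjusted p under 0.01 in edgeR's quasi-likelihood test. These are called higher or lower below.

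All groups came from E14-DOX-CRISPRi, a single picked clone of E14 mouse ESCs. Its doxycycline-inducible (DOX) transgene at the *Tigre* locus encodes a fusion of catalytically dead Cas9 with repressor domains that include KRAB. Vectors with 4 scramble guides gave the Neg line, and vectors with 1 guide each against *Me1*, *Me2* and *Pcx*, placed at their start sites, gave the 3×KD line. Neg ESCs and 3×KD ESCs were grown in N2B27 medium with 2iLif, which holds cells in the naive state, and Neg EpiLCs and 3×KD EpiLCs were taken on day 2 of culture in FAX medium (Activin A, Fgf2 and the tankyrase inhibitor XAV939). By the study's methods both lines and both states received DOX or DMSO and were harvested in parallel under drug selection, and the sequenced libraries were taken to be the DOX arm, which the labels do not name. Each line is 1 transfected guide set, so that an effect of the guides and an effect of the line cannot be told apart, and nothing in the labels says that the 3 libraries of a group came from separate cultures, so the p-values measure the spread between these libraries. All libraries of a line have the same entry in the labels' cell-type field, so the titles and library names were followed instead.

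*Pcx* encodes pyruvate carboxylase, which makes oxaloacetate from pyruvate, and *Me1* and *Me2* encode the cytosolic and mitochondrial malic enzymes, which return malate to pyruvate. Together they form a cycle around pyruvate that runs beside the tricarboxylic acid (TCA) cycle. Naive ESCs correspond to the preimplantation epiblast and are held by LIF and by inhibition of MEK and GSK3, whereas formative cells such as EpiLCs have shut down naive transcription factors and have turned on genes of the early postimplantation epiblast, including the de novo DNA methyltransferases.

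The sites of the *Pcx* and *Me1* guides in GRCm39 are shown because they are the perturbation that the contrast rests on. The guide bases that match the genome are in lower case and the adjoining NGG motif that Cas9 needs is in capitals. The *Pcx* site lies at chr19:4560559-4560580 on the plus strand, 4 bases from the nearest annotated transcript start, in untranslated exon sequence of the plus-strand gene. The *Me1* site lies at chr9:86577959-86577979 on the plus strand, 5 bases from the nearest start of the minus-strand gene and also in untranslated exon sequence.
Pcx: aggcaggggccgtcagaggCGG
Me1: agaagcgctgagtcacggCGG

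The repression of the targets did not pass the test for a difference between the states. *Pcx* was at 36.3, 36.8 and 35.7 CPM (counts scaled to library size with TMM factors) in Neg ESCs against 16.2, 16.3 and 16.8 in 3×KD ESCs, and at 46.7, 49.4 and 57.0 in Neg EpiLCs against 24.5, 23.6 and 25.6 in 3×KD EpiLCs. All 6 3×KD libraries lay below the Neg libraries of their state. The log2 effects were −1.14 in ESCs and −1.05 in EpiLCs for *Pcx*, −0.89 in ESCs and −1.05 in EpiLCs for *Me1* and −0.95 in ESCs and −0.98 in EpiLCs for *Me2*. Their differences were 0.09 (SE 0.097, adjusted p = 0.64), −0.16 (SE 0.086, adjusted p = 0.27) and −0.03 (SE 0.067, adjusted p = 0.87), respectively (n = 3 libraries a group, model fitted over all genes with edgeR). With the transcript-length offsets described below, the difference for *Pcx* was −0.10, also not called.

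Of the 25446 genes tested, 10% were called in the difference, 1211 higher (4.76%) and 1342 lower (5.27%). Among the 15032 genes averaging 1 CPM or more the share was 16.8%, with 7.95% higher and 8.89% lower. The median difference over all genes tested was 0.00, and the median effect was 0.03 in ESCs and 0.03 in EpiLCs. Most called differences were modest: their median size was 0.53, 1161 were larger than 0.58 and 563 larger than 1 on the log2 scale. Within each state, where a call also needed a log2 fold change above 0.58, 8.50% of the genes were called higher and 6.76% lower in 3×KD ESCs, and 7.88% higher and 5.35% lower in 3×KD EpiLCs. The absolute effect was larger in ESCs for 1425 of the 2553 called genes and in EpiLCs for 1128. It had opposite signs in the states for 1205, and 41 genes were called in both states in opposite directions, 20 lower in ESCs and higher in EpiLCs and 21 the reverse. For 1149 genes the difference was called although neither state alone was. A call in 1 state also needed the fold limit, so genes among them can have a small adjusted p in both states. *Skil* was such a gene, with effects of 0.48 in ESCs and −0.58 in EpiLCs. With library size alone in place of TMM factors, 1522 were called higher and 824 lower, and the median difference over all genes moved to 0.07.

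Depth lay between 11221023 and 19652197 estimated counts per library, both extremes in Neg ESCs. Among the settings of the fit, offsets for transcript length changed the calls most. These offsets divide a gene's count by the average length of its transcripts as Salmon estimated it in each library. They raised the median SE of the difference from 0.118 to 0.207 (genes averaging 1 CPM or more) and left 731 calls, of which 719 were among the 2553 and in the same direction. Counts under these offsets are therefore given with the gene groups.

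**Figure D1:**
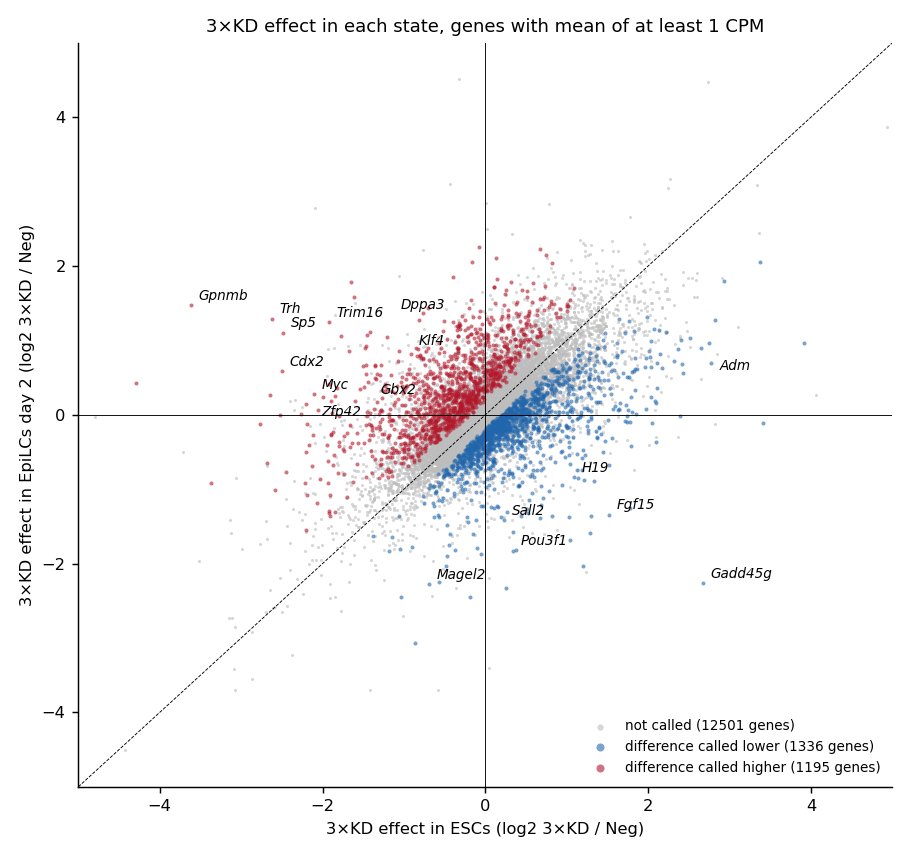
3×KD effect in ESCs (x axis) against the effect in EpiLCs day 2 (y axis), both as log2 3×KD over Neg, for the 15032 genes averaging 1 CPM or more. Colours mark the genes called higher (1195) and lower (1336) in the difference, the dashed line marks equal effects, and 38 genes lie outside the axes. Genes such as *Gpnmb* and *Trh* sit at the upper left and *Gadd45g* and *Fgf15* at the lower right, where the 2 effects have opposite signs.

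The 10 largest called increases of the effect from ESCs to EpiLCs, among annotated genes averaging 1 CPM or more, held 9 genes that were called lower in 3×KD ESCs, of which 4 were also called higher in 3×KD EpiLCs. *Gpnmb*, a transmembrane glycoprotein of lysosomes and melanosomes, was at 52.2, 49.2 and 55.5 CPM in Neg ESCs and at 4.85, 3.96 and 3.98 in 3×KD ESCs. In EpiLCs *Gpnmb* was at 0.308, 0.201 and 0.442 CPM in Neg and at 1.49, 0.512 and 0.687 in 3×KD. *Gpnmb* lay below all Neg libraries in every 3×KD library of ESCs and above them in EpiLCs, with log2 effects of −3.61 and 1.47 and a difference of 5.08 (SE 0.43, adjusted p = 4.5e-07). *Trh*, the precursor of thyrotropin-releasing hormone, was at 8.69, 10.2 and 9.18 CPM in Neg ESCs and at 1.54, 1.59 and 1.44 in 3×KD ESCs. In EpiLCs *Trh* was at 6.28, 5.17 and 4.24 CPM in Neg and at 13.5, 12.1 and 12.8 in 3×KD. *Trh* lay below all Neg libraries in every 3×KD library of ESCs and above them in EpiLCs, with log2 effects of −2.62 and 1.29 and a difference of 3.91 (SE 0.20, adjusted p = 1.8e-09). The E3 ligase gene *Trim16* (−1.92 and 1.24, difference 3.17) was also called in both states, and *Ly6a* (−1.65 and 1.79, difference 3.44), which encodes the surface antigen Sca-1, was in EpiLCs at 0.0616, 0.134 and 0.0632 CPM in Neg and 0.496, 0.320 and 0.125 in 3×KD. *Cdx2* and *Sp5*, also among the 10, are described with their groups below. *Ly6a* (2.704) was not called with the transcript-length offsets.

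A further 4 of these 10 had groups with 0 or 1 count. *Cwc22rt7* had 576 counts in Neg ESCs against 0 in 3×KD ESCs. In EpiLCs it had 0 counts in Neg and 621 in 3×KD, that is, at least 203-fold lower and at least 203-fold higher in 3×KD when a group at 0 is set to 3 counts over its 3 libraries. *Obox4-ps21*, a pseudogene, was at least 237-fold lower in 3×KD ESCs, and *Rnu1a1*, a copy of U1 small nuclear RNA, at least 604-fold higher in 3×KD EpiLCs. *Obox4-ps21* was not called in EpiLCs, and *Rnu1a1* was called higher in ESCs too, with a log2 effect of 1.595. All 3 belong to families of near-identical copies among which Salmon divides reads, so the values of a single copy are uncertain. *Dnah9*, an axonemal dynein heavy chain, had 25 counts in Neg ESCs and 1 in 3×KD ESCs, a ratio of 0.0379 with an exact 95% interval of 0.000922 to 0.231 that covers counting error only. *Obox4-ps21* (12.37) and *Dnah9* (4.37) were not called with the transcript-length offsets. *Obox4-ps21* was not called without 3×KD ESCs replicate 1 (12.37) and without 3×KD ESCs replicate 2 (12.39). *Dnah9* was not called without 3×KD ESCs replicate 2 (4.27) and without 3×KD ESCs replicate 3 (4.31). *Obox4-ps21* and *Rnu1a1* were no longer called under robust estimation.

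The 10 largest called decreases held genes that were silent in Neg ESCs and on in the other 3 groups, and genes that 3×KD raised in ESCs and lowered in EpiLCs. The interferon-induced GTPase gene *Gbp2* had 0 counts in Neg ESCs and was at 1.11, 0.793 and 0.719 CPM in 3×KD ESCs, at least 13.3-fold higher. *Gbp2* in EpiLCs was at 6.59, 6.04 and 6.83 CPM in Neg and 6.39, 6.20 and 5.93 in 3×KD, where the groups overlapped. Its neighbour and relative *Gbp2b* rose from 1 count in Neg ESCs to 241 in 3×KD ESCs, a ratio of 228 (exact interval 40.6 to 9048), against a log2 effect of 0.89 in EpiLCs. Reads shared between these relatives make their separate values uncertain. *H2-Q2*, a class I histocompatibility gene of a family of similar copies, had effects of 3.92 in ESCs and 0.97 in EpiLCs. *Clca1* had 1 count in Neg ESCs and 15 in 3×KD ESCs (ratio 14.2, 2.18 to 598). In EpiLCs its 3×KD libraries lay slightly below all Neg libraries, with a log2 effect of −0.11 that was not called. *Clca1* (−3.34) was not called with the transcript-length offsets. *Clca1* lost the call in 6 (range −5.47 to −2.88) of the 12 fits that each left out 1 library. *Clca1* was no longer called under a replicate block and DESeq2.

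*Gadd45g*, a growth arrest and DNA damage response gene, was at 1.42, 1.51 and 1.48 CPM in Neg ESCs and at 9.09, 9.63 and 9.67 in 3×KD ESCs. In EpiLCs *Gadd45g* was at 80.2, 68.6 and 78.6 CPM in Neg and at 14.9, 14.5 and 17.8 in 3×KD. *Gadd45g* lay above all Neg libraries in every 3×KD library of ESCs and below them in EpiLCs, with log2 effects of 2.68 and −2.27 and a difference of −4.94 (SE 0.15, adjusted p = 9.2e-12). Neg ESCs had its lowest level and Neg EpiLCs its highest, with both 3×KD groups between them. The neuronal adhesion gene *Nrcam* (1.78 and −1.25, difference −3.03), the mitochondrial calcium-binding protein gene *Efhd1* (1.28 and −1.59, difference −2.87) and the growth factor gene *Fgf15* (1.52 and −1.34, difference −2.86) also rose in 3×KD ESCs and fell in 3×KD EpiLCs, as called in each state. For *Crabp2*, a carrier of retinoic acid, the effects were 1.04 in ESCs and −1.68 in EpiLCs, and for *Atp1a4*, a sodium pump subunit, 1.201 in ESCs and −2.03 in EpiLCs. The *Atp1a4* effect in ESCs rested on 6 counts in Neg and 15 in 3×KD and was not called. The called *Fgf15* effect in ESCs rested on 10 counts in Neg and 31 in 3×KD. Among the genes called in opposite directions with the 10 largest differences were also the acetylcholine receptor subunit gene *Chrna9* (−1.78 and 1.06, difference 2.83) and a long noncoding RNA, ENSMUSG00000121782, which was detected in Neg ESCs (67 counts) and 3×KD EpiLCs (207 counts) and at 0 in the other groups. *Nrcam* (−1.49), *Efhd1* (−3.17), *Chrna9* (2.80) and *ENSMUSG00000121782* (16.45) were not called with the transcript-length offsets. *ENSMUSG00000121782* was no longer called under robust estimation.

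Naive pluripotency genes, which as a group shut down on exit from the ESC state, were mostly lower than Neg in 3×KD ESCs. In 3×KD EpiLCs they were mostly less lowered or higher than Neg. Of the 20 naive genes tested, 16 were called higher and 2 lower, with a median difference of 0.92 (median effect −0.73 in ESCs and 0.36 in EpiLCs), against 4.76% and 5.27% called over all genes and 7.95% and 8.89% among genes averaging 1 CPM or more. Within the states, 2 of these genes were called higher and 11 lower in 3×KD ESCs, and 6 higher and 3 lower in 3×KD EpiLCs. The list gave 14 higher and 1 lower with the transcript-length offsets, and 17 to 18 calls when each library was left out in turn. The same shares over all genes are the comparison for each list below.

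*Dppa3*, a maternal factor that protects DNA from active demethylation, was at 13.3, 13.2 and 12.6 CPM in Neg ESCs and at 7.93, 6.10 and 8.17 in 3×KD ESCs. In EpiLCs *Dppa3* was at 0.616, 0.604 and 0.632 CPM in Neg and at 1.303, 1.47 and 1.75 in 3×KD. *Dppa3* lay below all Neg libraries in every 3×KD library of ESCs and above them in EpiLCs, with log2 effects of −0.82 and 1.28 and a difference of 2.09 (SE 0.25, adjusted p = 2.2e-05). *Klf4*, a Krüppel-like factor and reprogramming gene, was at 415, 431 and 409.9 CPM in Neg ESCs and at 264, 266 and 271 in 3×KD ESCs. In EpiLCs *Klf4* was at 14.3, 17.5 and 16.8 CPM in Neg and at 28.2, 27.3 and 26.1 in 3×KD. *Klf4* lay below all Neg libraries in every 3×KD library of ESCs and above them in EpiLCs, with log2 effects of −0.65 and 0.75 and a difference of 1.40 (SE 0.075, adjusted p = 2.6e-09). *Zfp42*, better known as Rex1 and a standard naive reporter gene, was at 528, 518 and 501 CPM in Neg ESCs and at 226, 212 and 206 in 3×KD ESCs. In EpiLCs *Zfp42* was at 48.2, 47.4 and 48.2 CPM in Neg and at 47.2, 48.1 and 53.7 in 3×KD. *Zfp42* lay below all Neg libraries in every 3×KD library of ESCs and overlapped between the groups in EpiLCs, with log2 effects of −1.27 and 0.05 and a difference of 1.32 (SE 0.067, adjusted p = 1.5e-09).

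*Esrrb*, an orphan nuclear receptor of the naive network, was at 1139, 1177 and 1126 CPM in Neg ESCs and at 898, 904 and 912 in 3×KD ESCs. In EpiLCs *Esrrb* was at 64.3, 66.3 and 62.8 CPM in Neg and at 124, 119 and 116 in 3×KD. *Esrrb* lay below all Neg libraries in every 3×KD library of ESCs and above them in EpiLCs, with log2 effects of −0.34 and 0.89 and a difference of 1.23 (SE 0.049, adjusted p = 1.7e-10). *Nanog*, a homeobox factor of the core network, was at 1015, 1052 and 993 CPM in Neg ESCs and at 1106, 1099 and 1121 in 3×KD ESCs. In EpiLCs *Nanog* was at 33.9, 36.2 and 37.8 CPM in Neg and at 72.9, 75.9 and 77.9 in 3×KD. *Nanog* lay above all Neg libraries in every 3×KD library of both states, with log2 effects of 0.12 and 1.07 and a difference of 0.95 (SE 0.058, adjusted p = 1.0e-08). Effects of opposite sign in the 2 states were also measured for *Gbx2* (−1.35 and 0.49, difference 1.84), *Jam2* (−0.82 and 0.35, difference 1.17), *Tfcp2l1* (−0.26 and 0.59, difference 0.84), *Tbx3* (−0.51 and 0.33, difference 0.84), *Tcl1* (−0.51 and 0.37, difference 0.88) and *Klf2* (−0.83 and 0.05, difference 0.87). *Gbx2* is a homeobox factor downstream of LIF, *Tfcp2l1*, *Tbx3* and *Klf2* are naive transcription factors, *Jam2* is an adhesion gene and *Tcl1* is a coactivator of AKT. Unlike the list's median, *Gbx2* did not fall from ESCs to EpiLCs in Neg (log2 change 0.16), and it rose in 3×KD (2.01). Smaller decreases in EpiLCs than in ESCs were measured for *Manba* (−1.93 and −0.62, difference 1.31), *Nr5a2* (−1.30 and −0.10, difference 1.21), *Klf5* (−0.95 and −0.41, difference 0.54) and *Tdh* (−1.30 and −0.67, difference 0.63), and *Fbxo15* (−0.11 and 0.97, difference 1.09) rose in EpiLCs.

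The 2 called members with a lower effect in EpiLCs, *Dppa5a* (0.88 and 0.51, difference −0.37) and *Pecam1* (0.81 and 0.45, difference −0.36), were higher in 3×KD in both states. The 2 members that were not called, *Prdm14* and *Nr0b1*, had differences of 0.21 and 0.10. The summed level of 7 ESC markers from these genes was 3729 to 3842 CPM in Neg against 2678 to 2735 in 3×KD for ESCs, and 245 to 255 in Neg against 335 to 347 in 3×KD for EpiLCs, so the ranges of 3×KD and Neg did not overlap in either state. In such bulk libraries fewer cells of a type and less RNA per cell cannot be told apart. *Tcl1* (0.68) and *Pecam1* (−0.75) were not called with the transcript-length offsets. *Tcl1* lost the call in 5 (range 0.64 to 1.08) of the 12 fits that each left out 1 library. *Pecam1* was no longer called under library size alone as the scaling.

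**Figure D2:**
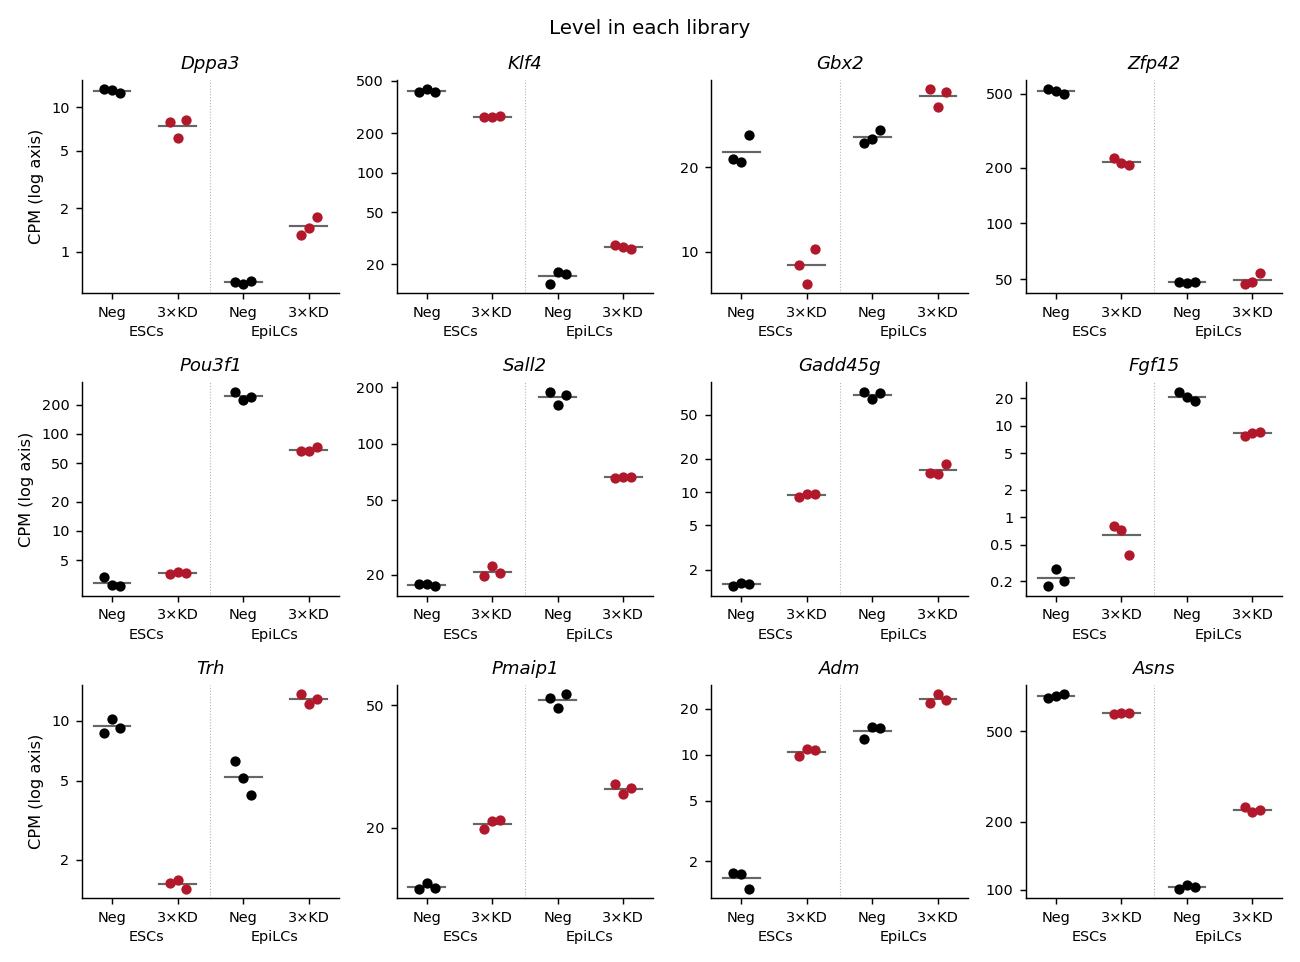
Level of 12 named genes in each library as TMM-normalized CPM on log axes, with Neg in black, 3×KD in red and a bar at each group's mean (n = 3 libraries). *Klf4*, *Dppa3*, *Gbx2* and *Trh* show 3×KD below Neg in ESCs and above it in EpiLCs, and *Gadd45g*, *Fgf15* and *Pmaip1* show the reverse.

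Genes of formative and primed pluripotency, which turn on in EpiLCs, mostly had lower effects in EpiLCs than in ESCs. Of the 23 such genes tested, 3 were called higher and 11 lower, with a median difference of −0.55 (median effect −0.31 in ESCs and −0.84 in EpiLCs). In EpiLCs 15 of them were called lower and 0 higher in 3×KD, and in ESCs 7 lower and 3 higher. The list gave 2 higher and 10 lower with the transcript-length offsets. *Pou3f1*, the POU factor Oct6, was at 3.37, 2.75 and 2.702 CPM in Neg ESCs and at 3.56, 3.78 and 3.66 in 3×KD ESCs. In EpiLCs *Pou3f1* was at 271, 222 and 241 CPM in Neg and at 66.3, 67.1 and 73.5 in 3×KD. *Pou3f1* lay above all Neg libraries in every 3×KD library of ESCs and below them in EpiLCs, with log2 effects of 0.34 and −1.83 and a difference of −2.17 (SE 0.17, adjusted p = 1.6e-07). *Sall2*, a zinc finger factor, was at 17.9, 17.9 and 17.4 CPM in Neg ESCs and at 19.7, 22.2 and 20.5 in 3×KD ESCs. In EpiLCs *Sall2* was at 188, 161 and 182 CPM in Neg and at 65.9, 66.2 and 66.7 in 3×KD. *Sall2* lay above all Neg libraries in every 3×KD library of ESCs and below them in EpiLCs, with log2 effects of 0.23 and −1.42 and a difference of −1.65 (SE 0.087, adjusted p = 2.2e-09).

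*Dnmt3b*, a de novo DNA methyltransferase, was at 91.7, 92.3 and 92.7 CPM in Neg ESCs and at 89.0, 86.5 and 80.7 in 3×KD ESCs. In EpiLCs *Dnmt3b* was at 1466, 1273 and 1363 CPM in Neg and at 669, 660.0 and 659.9 in 3×KD. *Dnmt3b* lay below all Neg libraries in every 3×KD library of both states, with log2 effects of −0.11 and −1.04 and a difference of −0.93 (SE 0.066, adjusted p = 5.9e-08). The other de novo enzyme, *Dnmt3a*, had effects of 0.39 in ESCs and −0.44 in EpiLCs, and the kinase gene *Pim2* effects of −0.38 in ESCs and −1.82 in EpiLCs. The SoxB1 and SoxC factors *Sox3* (0.59 and −0.42, difference −1.003) and *Sox11* (1.26 and 0.06, difference −1.20), the WNT effector *Lef1* (−0.63 and −1.37, difference −0.74), the intermediate filament gene *Nes* (0.06 and −0.73, difference −0.79) and the zinc finger gene *Zic5* (−0.57 and −0.95, difference −0.38) were also called lower. Against this direction, the ETS factor *Etv4* (−1.02 and 0.29, difference 1.31) and the epithelial factor *Grhl2* (−1.30 and −0.84, difference 0.46) were called higher. The 9 members not called, among them *Fgf5* (−0.55) and *Otx2* (0.22), had differences between −0.60 and 0.22. Summed over 6 EpiLC markers, the level was 277 to 280.1 CPM in Neg against 212 to 229.8 in 3×KD for ESCs, and 2315 to 2609 in Neg against 1239 to 1269.6 in 3×KD for EpiLCs. In EpiLCs *Dnmt3b* made up most of this sum, at a mean of 1367 CPM in Neg and 663 in 3×KD. *Lef1* (−0.63) and *Grhl2* (0.67) were not called with the transcript-length offsets. *Grhl2* lost the call in 11 (range 0.40 to 0.57) of the 12 fits that each left out 1 library. *Grhl2* was no longer called under DESeq2.

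Core pluripotency genes, which are expressed in both states, were called in both directions. Of the 12 core genes tested, 2 were called higher and 5 lower, with a median difference of −0.11 (median effect −0.15 in ESCs and −0.27 in EpiLCs), and 0 higher and 3 lower with the transcript-length offsets. The repressor of neural genes *Rest* (0.03 and −0.87, difference −0.89), the RNA-binding protein gene *Lin28a* (−0.10 and −0.69, difference −0.59) and the zinc finger gene *Zfp281* (−0.60 and −1.03, difference −0.42) were called lower. *Dppa4* (−0.21 and 0.23, difference 0.44) was called higher. In the group of DNA methylation genes, 2 of 17 were called higher and 7 lower (median −0.18), and 1 higher and 5 lower with the transcript-length offsets. Besides the de novo enzymes, the glycosylase gene *Tdg* (0.11 and −0.63, difference −0.74) was called lower and the dioxygenase gene *Tet2* (−0.64 and 0.13, difference 0.77) higher. Germline genes that promoter methylation silences were called at a share of 25.9%, against 10% of all genes and 16.8% of genes averaging 1 CPM or more. Of the 27 germline genes tested, 7 were called lower and 0 higher (median −0.24), and 0 higher and 3 lower with the transcript-length offsets. They included the RNA helicase gene *Ddx4* (0.39 and −0.21, difference −0.60) and *Taf7l* (−0.15 and −0.65, difference −0.50). *Lin28a* (−0.68) and *Dppa4* (0.40) were not called with the transcript-length offsets.

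Genes of the 2-cell-like state, a rare totipotent-like fluctuation of ESC cultures, had higher effects in EpiLCs than in ESCs. Of the 18 such genes tested, 12 were called higher and 0 lower, with a median difference of 0.97 (median effect −0.15 in ESCs and 0.77 in EpiLCs). All 18 differences lay above 0, and the list gave 11 higher and 0 lower with the transcript-length offsets. *Zscan4b*, 1 of 6 near-identical Zscan4 copies in the list, was at 20.4, 22.6 and 24.3 CPM in Neg ESCs and at 36.1, 28.6 and 36.6 in 3×KD ESCs. In EpiLCs *Zscan4b* was at 21.0, 26.6 and 22.1 CPM in Neg and at 79.0, 82.3 and 75.6 in 3×KD. *Zscan4b* lay above all Neg libraries in every 3×KD library of both states, with log2 effects of 0.58 and 1.77 and a difference of 1.18 (SE 0.14, adjusted p = 1.3e-05). The other copies, *Zscan4a* (0.94), *Zscan4c* (0.98), *Zscan4d* (0.99), *Zscan4e* (1.12) and *Zscan4f* (0.94), had differences of like size, and reads divided among copies make each uncertain. The deubiquitinase copies *Usp17la* (0.99), *Usp17lc* (1.05) and *Usp17le* (0.97) were called as well. Most of the 12 calls were such copies, so the counts and the median of the list do not stand for 18 separate genes. Outside these copies, *Zfp352* (−1.16 and 0.53, difference 1.69), *Tdpoz4* (−1.80 and −0.01, difference 1.78) and *Sp110* (−0.25 and 1.27, difference 1.52) were called higher, the first 2 with decreases in ESCs. The 6 members not called had differences between 0.36 and 0.73. *Sp110* (1.202) was not called with the transcript-length offsets.

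In the LIF and STAT3 pathway, which sustains naive self-renewal, 7 of the 8 called genes had higher effects in EpiLCs. Of the 15 pathway genes tested, 7 were called higher and 1 lower, with a median difference of 0.37 (median effect −0.04 in ESCs and 0.59 in EpiLCs), and 4 higher and 0 lower with the transcript-length offsets. Among receptors, *Il6st* (−0.72 in ESCs, 0.33 in EpiLCs, difference 1.05) encodes gp130, the shared receptor subunit. Of the kinases downstream, *Jak2* (0.15 and 0.78, difference 0.63) and *Pim1* (0.52 and 1.34, difference 0.82) were called higher and *Pim3* (0.82 and 0.60, difference −0.21) lower. *Stat3*, the transcription factor that LIF activates, was at 134, 142 and 137 CPM in Neg ESCs and at 136, 150.0 and 152 in 3×KD ESCs. In EpiLCs *Stat3* was at 36.5, 35.6 and 33.4 CPM in Neg and at 64.7, 59.6 and 58.7 in 3×KD. *Stat3* overlapped between the groups in ESCs and lay above all Neg libraries in every 3×KD library of EpiLCs, with log2 effects of 0.09 and 0.79 and a difference of 0.71 (SE 0.074, adjusted p = 4.8e-06). The STAT3-responsive factors *Gbx2*, *Klf4* and *Tfcp2l1* are given above. The 7 members not called, among them *Lif*, *Lifr* and *Socs3*, had differences between −0.18 and 0.37. *Il6st* (0.94), *Jak2* (0.79), *Pim3* (−0.24) and *Stat3* (1.05) were not called with the transcript-length offsets. *Jak2* lost the call in 6 (range 0.53 to 0.74) and *Pim3* lost the call in 10 (range −0.25 to −0.20) of the 12 fits that each left out 1 library. *Pim3* was no longer called under robust estimation, RLE factors, a replicate block, no filter on low counts, library size alone as the scaling and DESeq2.

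**Figure D3:**
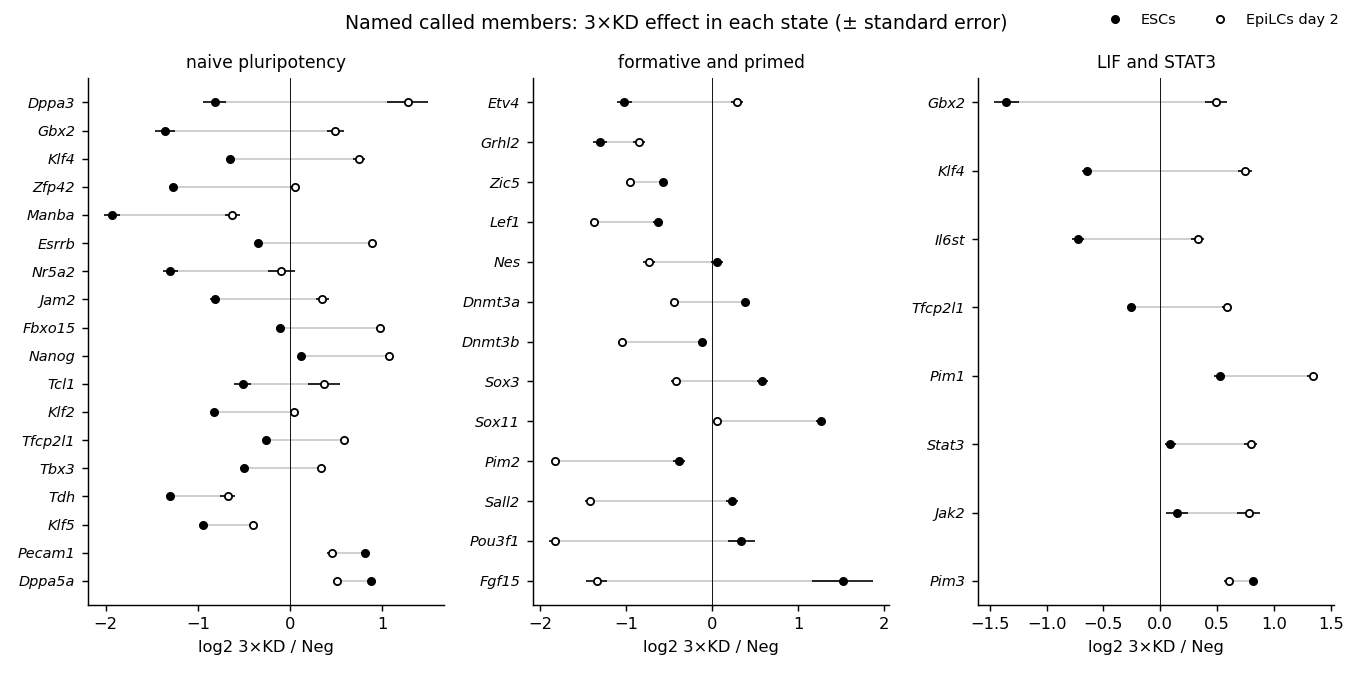
3×KD effect in ESCs (filled) and EpiLCs day 2 (open), as log2 3×KD over Neg with standard errors, for the named called members of 3 lists (18 naive, 13 formative and primed, 8 LIF and STAT3). Open points lie to the right of filled ones for 16 naive genes and to the left for 11 formative and primed genes.

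Genes of FGF signalling and its MAPK feedback, which drives exit from the naive state, were called in both directions. Of the 24 pathway genes tested, 6 were called higher and 4 lower, with a median difference of 0.10 (median effect −0.14 in ESCs and −0.04 in EpiLCs), and 3 higher and 4 lower with the transcript-length offsets. *Fgf4*, an autocrine ligand of ESCs, was at 79.2, 82.2 and 79.1 CPM in Neg ESCs and at 119, 114 and 117 in 3×KD ESCs. In EpiLCs *Fgf4* was at 247, 243 and 247 CPM in Neg and at 109, 111.3 and 112 in 3×KD. *Fgf4* lay above all Neg libraries in every 3×KD library of ESCs and below them in EpiLCs, with log2 effects of 0.54 and −1.15 and a difference of −1.69 (SE 0.046, adjusted p = 2.6e-12). *Fgfr2* (1.55 and −0.31, difference −1.86) was called lower as well, like *Fgf15* above. *Dusp6*, an ERK phosphatase that ERK itself induces, was at 4.96, 7.30 and 6.88 CPM in Neg ESCs and at 3.07, 4.09 and 3.01 in 3×KD ESCs. In EpiLCs *Dusp6* was at 180.3, 179 and 182 CPM in Neg and at 269.9, 284 and 278 in 3×KD. *Dusp6* lay below all Neg libraries in every 3×KD library of ESCs and above them in EpiLCs, with log2 effects of −0.94 and 0.62 and a difference of 1.56 (SE 0.14, adjusted p = 9.7e-07). *Dusp6* (1.31) was not called with the transcript-length offsets.

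WNT readouts were called in both directions, at a share of 28.6% against 16.8% of genes averaging 1 CPM or more. Of the 21 WNT genes tested, 3 were called higher and 3 lower, with a median difference of 0.12 (median effect −0.08 in ESCs and −0.17 in EpiLCs), and 3 higher and 1 lower with the transcript-length offsets. *Sp5*, a direct transcriptional target of β-catenin, was at 19.06, 19.13 and 21.5 CPM in Neg ESCs and at 3.50, 3.60 and 3.59 in 3×KD ESCs. In EpiLCs *Sp5* was at 0.0616, 0 and 0.126 CPM in Neg and at 0.186, 0.128 and 0.125 in 3×KD. *Sp5* lay below all Neg libraries in every 3×KD library of ESCs and overlapped between the groups in EpiLCs, with log2 effects of −2.48 and 1.105 and a difference of 3.59 (SE 0.65, adjusted p = 0.0018). In EpiLCs these values rest on 3 counts in Neg and 7 in 3×KD, a ratio of 2.29 with an exact 95% interval of 0.524 to 13.7. *Axin2*, a feedback inhibitor of the pathway, was at 91.5, 88.6 and 90.1 CPM in Neg ESCs and at 49.3, 45.4 and 46.1 in 3×KD ESCs. In EpiLCs *Axin2* was at 24.5, 25.98 and 27.1 CPM in Neg and at 33.4, 29.0 and 27.2 in 3×KD. *Axin2* lay below all Neg libraries in every 3×KD library of ESCs and above them in EpiLCs, with log2 effects of −0.94 and 0.21 and a difference of 1.15 (SE 0.092, adjusted p = 2.6e-07). The receptor gene *Fzd7* (0.76 and −0.18, difference −0.94) was called lower. *Sp5* was not called without 3×KD EpiLCs replicate 1 (3.39).

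The promoter of *Sp5* (RefSeq, GRCm38.p6, chr2:70474673-70474972, plus strand, 250 bases before to 50 after the start) is shown because it was the only 1 of 14 WNT readouts with a promoter entry to hold the TCF/LEF motif ATCAAAG on either strand, in capitals and 104 bases before the start. The motif was present in 4.29% of 27025 genes with a promoter entry.
Sp5: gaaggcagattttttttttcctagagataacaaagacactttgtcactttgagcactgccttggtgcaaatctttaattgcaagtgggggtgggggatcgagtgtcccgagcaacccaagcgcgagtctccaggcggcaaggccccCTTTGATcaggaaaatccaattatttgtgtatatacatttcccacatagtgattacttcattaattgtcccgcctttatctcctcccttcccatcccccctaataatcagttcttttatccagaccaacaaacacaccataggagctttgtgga

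In the TGF-β families, Nodal and activin genes were called in both directions and BMP genes mostly higher. Of 19 Nodal and activin genes, 3 were called higher and 5 lower (median −0.05), with the feedback inhibitor *Lefty1* (0.64 and −0.74, difference −1.38) and the SMAD repressor *Skil* (0.48 and −0.58, difference −1.05) lower and the ligand *Nodal* (−0.99 and −0.38, difference 0.61) and the inhibitor *Smad7* (−0.85 and −0.19, difference 0.66) higher. For *Lefty1* the effect in ESCs rested on 26 counts in Neg and 43 in 3×KD and was not called. The Nodal and activin list gave 1 higher and 2 lower with the transcript-length offsets. BMP and Id genes were called at a share of 26.3%, against 10% of all genes and 16.8% of genes averaging 1 CPM or more. Of 19 BMP and Id genes, 4 were called higher and 1 lower (median 0.11), but 1 and 0 with the transcript-length offsets and 2 to 5 in all when a library was left out. For *Bmp4*, the ligand, the log2 effect was −1.14 in ESCs and 0.32 in EpiLCs, a difference of 1.47 (SE 0.21, adjusted p = 1.2e-04). *Id3*, an inhibitor of basic helix-loop-helix factors and a BMP target, was at 2.75, 3.17 and 4.33 CPM in Neg ESCs and at 1.11, 1.77 and 1.18 in 3×KD ESCs. In EpiLCs *Id3* was at 1.05, 1.88 and 2.09 CPM in Neg and at 3.10, 2.24 and 2.56 in 3×KD. *Id3* lay below all Neg libraries in every 3×KD library of ESCs and above them in EpiLCs, with log2 effects of −1.35 and 0.66 and a difference of 2.01 (SE 0.39, adjusted p = 0.0015). *Id1* (−1.84 and 0.53, difference 2.36) followed *Id3*, whereas *Id2* (1.19 and −0.59, difference −1.78) went the other way. *Smad7* (0.51), *Bmp4* (0.07), *Id1* (2.38) and *Id2* (−1.89) were not called with the transcript-length offsets. *Lefty1* was not called without Neg ESCs replicate 3 (−1.27). *Id1* lost the call in 7 (range 1.90 to 2.58) and *Id2* lost the call in 5 (range −2.04 to −1.60) of the 12 fits that each left out 1 library.

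Among genes of lineages outside the epiblast, some primitive endoderm genes were called lower. The share called in that list was 26.3%, against 16.8% of genes averaging 1 CPM or more. Of the 19 primitive endoderm genes tested, 1 was called higher and 4 lower, with a median difference of −0.53 (median effect 0.36 in ESCs and −0.17 in EpiLCs), and 0 higher and 1 lower with the transcript-length offsets. *Gata6*, a master factor of primitive endoderm, was at 5.32, 5.51 and 5.25 CPM in Neg ESCs and at 8.601, 9.39 and 9.54 in 3×KD ESCs. In EpiLCs *Gata6* was at 8.99, 8.73 and 10.9 CPM in Neg and at 4.47, 4.03 and 5.56 in 3×KD. *Gata6* lay above all Neg libraries in every 3×KD library of ESCs and below them in EpiLCs, with log2 effects of 0.78 and −1.02 and a difference of −1.80 (SE 0.18, adjusted p = 3.8e-06). The endocytic receptor gene *Lrp2* (0.36 and −0.17, difference −0.53) and the matrix genes *Lamb1* (1.01 and 0.28, difference −0.74) and *Col4a2* (1.27 and 0.49, difference −0.79) were called lower too. Summed over 6 primitive endoderm markers, none of them at 0 in all libraries, the level was 21.1 to 24.2 CPM in Neg against 30.1 to 32.1 in 3×KD for ESCs, and 27.8 to 32.2 in Neg against 23.5 to 25.3 in 3×KD for EpiLCs, and the part of such cells in the results above was not tested. *Cdx2*, a trophectoderm factor that WNT also induces, was at 2.75, 2.62 and 3.21 CPM in Neg ESCs and at 0.491, 0.427 and 0.588 in 3×KD ESCs. In EpiLCs *Cdx2* was at 0.493, 0.134 and 0.316 CPM in Neg and at 0.310, 0.384 and 0.749 in 3×KD. *Cdx2* lay below all Neg libraries in every 3×KD library of ESCs and overlapped between the groups in EpiLCs, with log2 effects of −2.50 and 0.59 and a difference of 3.08 (SE 0.59, adjusted p = 0.0014). For *Sox1*, an early neuroectoderm factor, the log2 effect was −0.15 in ESCs and −1.60 in EpiLCs, a difference of −1.45 (SE 0.15, adjusted p = 5.5e-06). For *Tfap2c*, a factor of trophoblast and germ cells, the log2 effect was 0.28 in ESCs and 1.21 in EpiLCs, a difference of 0.93 (SE 0.17, adjusted p = 9.2e-04). The sum of 3 neural markers was 7.49 to 9.40 CPM in Neg against 5.98 to 8.36 in 3×KD for ESCs, and 68.3 to 70.9 in Neg against 23.3 to 27.6 in 3×KD for EpiLCs, and that of 3 trophoblast markers 3.03 to 3.77 CPM in Neg against 1.11 to 1.24 in 3×KD for ESCs, and 0.940 to 1.66 in Neg against 1.79 to 2.85 in 3×KD for EpiLCs. Most of the neural sum was *Sox1*, which averaged 65.2 CPM in Neg EpiLCs and 21.6 in 3×KD EpiLCs. In Neg ESCs most of the trophoblast sum was *Cdx2*, at a mean of 2.86 CPM. Mesoderm markers (4 genes) summed to between 19.4 and 30.0 CPM in any library. The sum of 4 fibroblast markers was 4.20 to 5.41 CPM in Neg against 7.80 to 8.62 in 3×KD for ESCs, and 3.51 to 4.56 in Neg against 5.62 to 7.07 in 3×KD for EpiLCs, with no overlap between Neg and 3×KD in either state, and the part of such cells in the results was not tested. *Lrp2* (−0.30), *Lamb1* (−0.63), *Col4a2* (−0.66), *Cdx2* (3.06) and *Tfap2c* (1.11) were not called with the transcript-length offsets. *Col4a2* lost the call in 4 (range −0.89 to −0.72) of the 12 fits that each left out 1 library. *Col4a2* was no longer called under DESeq2.

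Targets of p53, the DNA damage and stress response factor, mostly had lower effects in EpiLCs than in ESCs. Of the 24 p53 target genes tested, 1 was called higher and 17 lower, with a median difference of −0.56 (median effect 0.03 in ESCs and −0.53 in EpiLCs). In EpiLCs 11 were called lower and 2 higher in 3×KD, and in ESCs 0 lower and 3 higher. The list gave 0 higher and 13 lower with the transcript-length offsets, and 17 to 18 calls when each library was left out. *Pmaip1*, which encodes the apoptosis inducer Noxa, was at 12.7, 13.2 and 12.7 CPM in Neg ESCs and at 19.7, 21.0 and 21.1 in 3×KD ESCs. In EpiLCs *Pmaip1* was at 52.7, 49.0 and 54.2 CPM in Neg and at 27.7, 25.7 and 26.9 in 3×KD. *Pmaip1* lay above all Neg libraries in every 3×KD library of ESCs and below them in EpiLCs, with log2 effects of 0.68 and −0.96 and a difference of −1.63 (SE 0.086, adjusted p = 2.1e-09). *Cdkn1a*, which encodes the cell cycle inhibitor p21, was at 160.3, 157 and 167 CPM in Neg ESCs and at 197, 199 and 193 in 3×KD ESCs. In EpiLCs *Cdkn1a* was at 105, 90.7 and 95.3 CPM in Neg and at 55.7, 57.4 and 59.9 in 3×KD. *Cdkn1a* lay above all Neg libraries in every 3×KD library of ESCs and below them in EpiLCs, with log2 effects of 0.28 and −0.75 and a difference of −1.03 (SE 0.068, adjusted p = 2.4e-08). *Mdm2*, the ubiquitin ligase that degrades p53, was at 165, 162 and 156 CPM in Neg ESCs and at 164, 157 and 164 in 3×KD ESCs. In EpiLCs *Mdm2* was at 222, 209.7 and 218 CPM in Neg and at 142, 137 and 137 in 3×KD. *Mdm2* overlapped between the groups in ESCs and lay below all Neg libraries in every 3×KD library of EpiLCs, with log2 effects of 0.01 and −0.64 and a difference of −0.65 (SE 0.050, adjusted p = 1.5e-07).

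Polo-like kinase genes were called lower, namely *Plk3* (1.24 and −0.15, difference −1.39) and *Plk2* (0.23 and −0.78, difference −1.01). So were the death receptor gene *Tnfrsf10b* (0.48 and −0.22, difference −0.70), the BH3 gene *Bbc3* (0.50 and −0.05, difference −0.55), the RNA-binding gene *Zmat3* (0.09 and −0.64, difference −0.73), the exonuclease gene *Aen* (0.04 and −0.52, difference −0.57) and the antiproliferative gene *Btg2* (−0.24 and −0.91, difference −0.67). Among these the largest decrease within EpiLCs was that of *Ccng1*, the cyclin G1 gene, at −1.16 against −0.54 in ESCs. Differences of −0.66 (*Eda2r*), −0.52 (*Phlda3*), −0.39 (*Sesn2*), −0.33 (*Gtse1*), −0.32 (*Trp53inp1*) and −0.26 (*Mdm4*) make up the rest of the 17, and the stress gene *Sesn1* (0.23 and 0.92, difference 0.70) was the 1 called higher. The 6 members not called, among them *Trp53* itself, *Bax* and *Fas*, had differences between −0.88 and 0.35. *Bbc3* (−0.77), *Phlda3* (−0.65), *Sesn2* (−0.41), *Trp53inp1* (−0.36) and *Sesn1* (0.56) were not called with the transcript-length offsets. *Mdm4* lost the call in 9 (range −0.31 to −0.23) of the 12 fits that each left out 1 library. *Mdm4* was no longer called under RLE factors, a replicate block, library size alone as the scaling and the stricter filterByExpr filter.

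Among cyclins and regulators of G1, MYC family and inhibitor genes differed. Of the 23 such genes tested, 3 were called higher and 4 lower, with a median difference of −0.01 (median effect 0.03 in ESCs and −0.02 in EpiLCs), and 1 higher and 3 lower with the transcript-length offsets. *Myc*, a growth-promoting factor that LIF sustains in ESCs, was at 3.10, 4.13 and 5.71 CPM in Neg ESCs and at 1.29, 0.976 and 0.849 in 3×KD ESCs. In EpiLCs *Myc* was at 52.7, 55.1 and 57.0 CPM in Neg and at 67.9, 64.0 and 67.9 in 3×KD. *Myc* lay below all Neg libraries in every 3×KD library of ESCs and above them in EpiLCs, with log2 effects of −2.10 and 0.28 and a difference of 2.38 (SE 0.23, adjusted p = 1.9e-06). The paralog *Mycn* (−1.05 and −1.81, difference −0.76) fell in both states and more in EpiLCs. For *Cdkn1c*, the imprinted inhibitor p57, the log2 effect was 0.60 in ESCs and −0.84 in EpiLCs, a difference of −1.44 (SE 0.12, adjusted p = 6.1e-07).

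Glycolysis genes had positive median effects of 3×KD in both states, and a smaller one in EpiLCs. Of the 24 glycolysis genes tested, 1 was called higher and 11 lower, with a median difference of −0.22 (median effect 0.67 in ESCs and 0.44 in EpiLCs). In 3×KD ESCs 16 were called higher and in 3×KD EpiLCs 9, with 0 lower in either. The list gave 1 higher and 7 lower with the transcript-length offsets, and 10 to 14 calls when each library was left out. *Slc16a3*, a lactate exporter, was at 186, 202 and 184 CPM in Neg ESCs and at 332, 334 and 326 in 3×KD ESCs. In EpiLCs *Slc16a3* was at 354, 352 and 344 CPM in Neg and at 299.6, 323 and 292 in 3×KD. *Slc16a3* lay above all Neg libraries in every 3×KD library of ESCs and below them in EpiLCs, with log2 effects of 0.80 and −0.20 and a difference of −0.996 (SE 0.058, adjusted p = 6.7e-09). *Ldha*, the muscle-type lactate dehydrogenase subunit, was at 1342, 1379 and 1303 CPM in Neg ESCs and at 1828, 1859 and 1839 in 3×KD ESCs. In EpiLCs *Ldha* was at 1351, 1311 and 1329 CPM in Neg and at 1415, 1413 and 1434 in 3×KD. *Ldha* lay above all Neg libraries in every 3×KD library of both states, with log2 effects of 0.46 and 0.09 and a difference of −0.36 (SE 0.044, adjusted p = 2.1e-05). The heart-type subunit gene *Ldhb* and the enolase gene *Eno3* had differences of −0.85 and −1.18. Differences between −0.20 and −0.36 were measured for *Hk2*, *Gapdh*, *Tpi1*, *Pkm*, *Eno1*, *Pgam1* and *Pfkl*, which encode glycolytic enzymes from hexokinase to pyruvate kinase. The 12 members not called, *Gpi1*, *Aldoa* and *Pgk1* of the same pathway among them, had differences between −0.56 and 0.23. The phosphofructokinase gene *Pfkm* (−0.03 and 0.57, difference 0.60) was the 1 called higher. *Eno3* (−0.75), *Eno1* (−0.22), *Pgam1* (−0.21) and *Pfkl* (−0.29) were not called with the transcript-length offsets. *Pgam1* lost the call in 5 (range −0.26 to −0.21) and *Pfkl* lost the call in 6 (range −0.24 to −0.18) of the 12 fits that each left out 1 library. *Eno1* and *Pgam1* were no longer called under library size alone as the scaling. *Pfkl* was no longer called under RLE factors, a replicate block, no filter on low counts and library size alone as the scaling.

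Targets of hypoxia-inducible factor outside glycolysis followed the same direction. Of the 24 such genes tested, 1 was called higher and 9 lower, with a median difference of −0.22 (median effect 1.06 in ESCs and 0.56 in EpiLCs), and 0 higher and 3 lower with the transcript-length offsets. *Adm*, the vasodilator peptide adrenomedullin, was at 1.68, 1.65 and 1.33 CPM in Neg ESCs and at 9.83, 10.9 and 10.6 in 3×KD ESCs. In EpiLCs *Adm* was at 12.7, 15.1 and 14.9 CPM in Neg and at 21.8, 24.8 and 22.9 in 3×KD. *Adm* lay above all Neg libraries in every 3×KD library of both states, with log2 effects of 2.77 and 0.70 and a difference of −2.07 (SE 0.16, adjusted p = 1.8e-07). The calcium regulator hormone gene *Stc1* (1.39 and −0.16, difference −1.55), the complex I-related *Ndufa4l2* (1.33 and 0.49, difference −0.85) and the collagen hydroxylase gene *Plod2* (0.67 and 0.08, difference −0.59) were called lower, and the pyruvate dehydrogenase kinase gene *Pdk1* (−0.06 and 0.48, difference 0.54) higher. *Adm* (−1.70), *Stc1* (−1.58) and *Pdk1* (0.54) were not called with the transcript-length offsets.

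Cholesterol synthesis genes, targets of the sterol regulator SREBP, had positive median effects of 3×KD in both states, and a smaller one in EpiLCs. Of the 25 such genes tested, 0 were called higher and 15 lower, with a median difference of −0.26 (median effect 0.63 in ESCs and 0.40 in EpiLCs). In ESCs 13 were called higher and in EpiLCs 8. With library size alone in place of TMM 7 were called lower, and the list gave 0 higher and 3 lower with the transcript-length offsets. *Hmgcs1*, which encodes HMG-CoA synthase, was at 322, 332 and 303 CPM in Neg ESCs and at 493, 494 and 493 in 3×KD ESCs. In EpiLCs *Hmgcs1* was at 357, 377 and 376 CPM in Neg and at 463, 447 and 457 in 3×KD. *Hmgcs1* lay above all Neg libraries in every 3×KD library of both states, with log2 effects of 0.63 and 0.30 and a difference of −0.33 (SE 0.051, adjusted p = 2.5e-04). Among the other called members, the 11 from the mevalonate pathway (*Idi1* and *Fdps*) through squalene synthesis and cyclization (*Fdft1*, *Lss*) to the late sterol steps (*Cyp51*, *Msmo1*, *Nsdhl* and *Dhcr7*) and the regulators and transporter (*Srebf1*, *Srebf2* and *Stard4*), had differences between −0.24 and −0.49. The 10 members not called, *Sqle* among them, had differences between −0.41 and 0.31.

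The promoter of *Hmgcs1* (RefSeq, GRCm38.p6, chr13:119690101-119690400, plus strand) is printed as the 1 of 17 list members with a promoter entry that held the sterol element TCACNCCAC on either strand, in capitals and 137 bases before the start. That motif was present in 1.44% of 27025 genes.
Hmgcs1: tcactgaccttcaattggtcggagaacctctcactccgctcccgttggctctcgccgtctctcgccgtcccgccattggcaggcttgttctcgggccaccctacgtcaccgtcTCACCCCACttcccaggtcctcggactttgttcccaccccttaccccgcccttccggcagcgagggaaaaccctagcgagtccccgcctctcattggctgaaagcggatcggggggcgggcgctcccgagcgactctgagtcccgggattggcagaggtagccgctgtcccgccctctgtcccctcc

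With the transcript-length offsets *Hmgcs1* (−0.36) and *Idi1* (−0.63) kept their calls among these cholesterol genes. *Nsdhl* lost the call in 7 of the 12 fits that each left out 1 library, and was also not called with the replicate block and in DESeq2. Fatty acid synthesis genes were called at a share of 23.5%, and genes of the NRF2 and pentose phosphate list at 27.8%. The shares were 10% over all genes and 16.8% over genes averaging 1 CPM or more. Of 17 fatty acid synthesis genes 4 were called lower and 0 higher (0 higher and 2 lower with the transcript-length offsets), with the ligase gene *Acsl4* (0.55 and −0.63, difference −1.18) and the desaturase genes *Scd2* (0.82 and 0.29, difference −0.53) and *Fads2* (1.13 and 0.80, difference −0.33) among them. Of 18 genes of the NRF2 oxidative stress response and the pentose phosphate pathway 5 were called lower and 0 higher (0 higher and 2 lower with the transcript-length offsets), among them the thioredoxin reductase gene *Txnrd1* (0.72 and 0.17, difference −0.55), the glutathione synthesis gene *Gclc* (−0.19 and −0.69, difference −0.50) and the peroxide reductases *Srxn1* (0.23 and −0.19, difference −0.42) and *Prdx1* (0.21 and −0.14, difference −0.35). *Acsl4* (−0.59), *Gclc* (−0.41) and *Srxn1* (−0.51) were not called with the transcript-length offsets. *Fads2* was no longer called under library size alone as the scaling.

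Around the repressed reactions, genes of the pyruvate node and the TCA cycle had small differences of both signs. Of the 38 such genes tested, 4 were called higher and 7 lower, with a median difference of −0.09 (median effect 0.19 in ESCs and 0.06 in EpiLCs), and 0 higher and 1 lower with the transcript-length offsets. *Idh2*, the mitochondrial NADP-dependent isocitrate dehydrogenase, was at 57.5, 57.5 and 52.3 CPM in Neg ESCs and at 124, 118 and 115 in 3×KD ESCs. In EpiLCs *Idh2* was at 14.2, 15.5 and 13.0 CPM in Neg and at 48.9, 47.2 and 42.5 in 3×KD. *Idh2* lay above all Neg libraries in every 3×KD library of both states, with log2 effects of 1.09 and 1.70 and a difference of 0.60 (SE 0.093, adjusted p = 2.3e-04). The mitochondrial pyruvate carrier gene *Mpc1* (0.48 and −0.12, difference −0.61) and the isocitrate dehydrogenase subunit gene *Idh3b* (0.20 and −0.21, difference −0.41) were called lower. *Idh2* (0.49), *Mpc1* (−0.35) and *Idh3b* (−0.51) were not called with the transcript-length offsets. *Mpc1* lost the call in 6 (range −0.68 to −0.55) of the 12 fits that each left out 1 library. *Mpc1* was no longer called under library size alone as the scaling and DESeq2.

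The calls among amino acid genes were mostly higher. Of the 20 aminotransferase and glutamine genes tested, 6 were called higher and 2 lower, with a median difference of 0.09 (median effect 0.16 in ESCs and 0.42 in EpiLCs), and 4 higher and 1 lower with the transcript-length offsets. *Asns*, asparagine synthetase and a target of the stress factor ATF4, was at 701, 720.1 and 729 CPM in Neg ESCs and at 595, 602 and 606 in 3×KD ESCs. In EpiLCs *Asns* was at 101, 105 and 103 CPM in Neg and at 232, 220.1 and 225 in 3×KD. *Asns* lay below all Neg libraries in every 3×KD library of ESCs and above them in EpiLCs, with log2 effects of −0.25 and 1.14 and a difference of 1.39 (SE 0.044, adjusted p = 1.2e-11). *Bcat1*, the cytosolic branched-chain aminotransferase, was at 793, 829.8 and 814 CPM in Neg ESCs and at 859, 835 and 839.8 in 3×KD ESCs. In EpiLCs *Bcat1* was at 78.0, 80.9 and 79.7 CPM in Neg and at 181, 185 and 189 in 3×KD. *Bcat1* lay above all Neg libraries in every 3×KD library of both states, with log2 effects of 0.06 and 1.22 and a difference of 1.16 (SE 0.046, adjusted p = 1.7e-10). The glutamate dehydrogenase gene *Glud1* (−0.29 and 0.28, difference 0.58) was called higher as well. In the serine, glycine and folate list 4 of 19 were called higher and 1 lower (median 0.06), and 1 higher and 1 lower with the transcript-length offsets. The share called in this list was 26.3%, against 16.8% of genes averaging 1 CPM or more. The called genes included the threonine-degrading enzyme genes *Tdh* (−1.30 and −0.67, difference 0.63) and *Gcat* (0.07 and 0.67, difference 0.60), the glycine cleavage gene *Amt* (0.29 and 0.71, difference 0.43) and, lower, the folate enzyme gene *Mthfd1l* (0.53 and 0.14, difference −0.39). *Gcat* (0.60) and *Amt* (0.32) were not called with the transcript-length offsets.

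*Asns* also belongs to the integrated stress response list, whose members went both ways: 3 of 28 were called higher and 6 lower (median −0.07), and 2 higher and 2 lower with the transcript-length offsets. The mTOR inhibitor gene *Ddit4* (1.69 and 0.56, difference −1.13) and the secreted glycoprotein gene *Stc2* (0.33 and −0.35, difference −0.68) were called lower and the arginine transporter gene *Slc7a3* (−0.95 and −0.28, difference 0.68) higher. *Stc2* (−0.64) was not called with the transcript-length offsets.

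The composite motif TGATGNAAN, which ATF4 binds with a partner, was present on either strand in 9 of 23 promoters of the list (39.1%) and in 4.50% of 27025 genes. Of the 9, 1 was called in the difference, against 32.1% of the whole list. It was *Asns*, whose promoter (RefSeq, GRCm38.p6, chr6:7693160-7693459, minus strand) is therefore shown with the match in capitals, 23 bases before the start.
Asns: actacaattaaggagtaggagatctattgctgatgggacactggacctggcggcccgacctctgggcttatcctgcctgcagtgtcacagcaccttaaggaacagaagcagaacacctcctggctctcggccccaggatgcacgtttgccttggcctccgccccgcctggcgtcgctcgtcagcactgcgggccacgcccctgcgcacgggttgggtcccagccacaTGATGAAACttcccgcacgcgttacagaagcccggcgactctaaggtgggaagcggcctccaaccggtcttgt

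**Figure D4:**
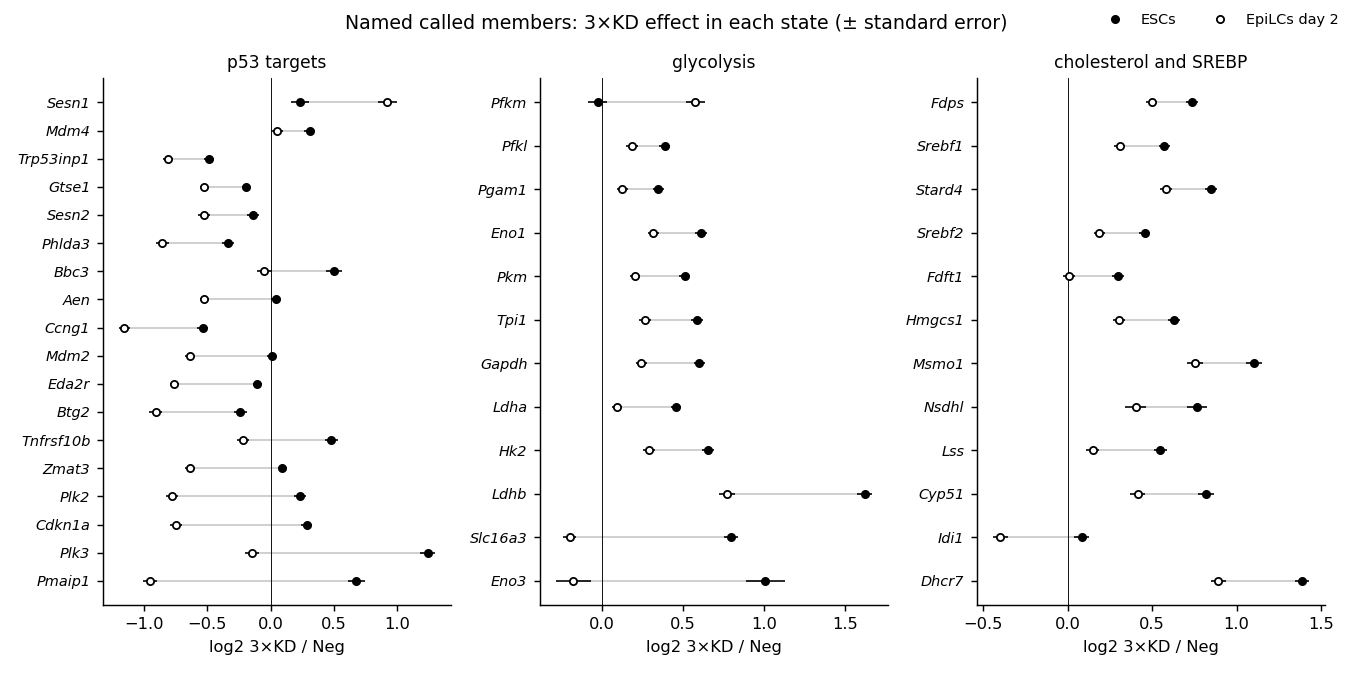
3×KD effect in ESCs (filled) and EpiLCs day 2 (open), as log2 3×KD over Neg with standard errors, for the named called members of 3 lists (18 p53 targets, 12 glycolysis, 12 cholesterol and SREBP). The p53 targets straddle 0, whereas most glycolysis and cholesterol genes lie to the right of 0 in both states with the open point nearer to 0.

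Lysosomal genes and the regulators of the transcription factor TFE3 were mostly called higher where they were called. Of the 32 such genes tested, 13 were called higher and 2 lower, with a median difference of 0.24 (median effect −0.10 in ESCs and 0.19 in EpiLCs), and 4 higher and 1 lower with the transcript-length offsets. *Hexa*, a lysosomal hexosaminidase subunit, was at 115, 113 and 109 CPM in Neg ESCs and at 92.3, 94.9 and 98.2 in 3×KD ESCs. In EpiLCs *Hexa* was at 31.7, 33.3 and 32.6 CPM in Neg and at 49.0, 48.1 and 48.5 in 3×KD. *Hexa* lay below all Neg libraries in every 3×KD library of ESCs and above them in EpiLCs, with log2 effects of −0.24 and 0.58 and a difference of 0.81 (SE 0.057, adjusted p = 5.7e-08). The related transcription factors *Tfeb* (−0.26 and 0.72, difference 0.98) and *Mitf* (−0.93 and −0.15, difference 0.79) were called higher, as was *Gpnmb* above. *Tfeb* (0.54) and *Mitf* (0.67) were not called with the transcript-length offsets.

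The E-box TCACGTGA that TFE factors bind was present on either strand in 7 of 27 promoters of this list (25.9%) and in 1.12% of 27025 genes. Of those 7, 2 were called in the difference, both higher, *Ctsa* and *Ctsd*, which encode the lysosomal proteases cathepsin A and D. Over the whole list 46.9% were called, and a relation between the motif and the calls was not tested. The *Ctsa* promoter (RefSeq, GRCm38.p6, chr2:164833523-164833822, plus strand) held 2 matches, in capitals.
Ctsa: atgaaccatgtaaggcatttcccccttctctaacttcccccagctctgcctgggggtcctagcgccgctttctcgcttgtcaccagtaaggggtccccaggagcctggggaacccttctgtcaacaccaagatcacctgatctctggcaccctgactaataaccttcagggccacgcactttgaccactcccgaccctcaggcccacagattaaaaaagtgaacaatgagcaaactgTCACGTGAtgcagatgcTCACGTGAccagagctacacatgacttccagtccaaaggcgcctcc

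Respiratory genes were called at shares of 13.7% for those encoded in the nucleus and 15.4% for those encoded in mitochondria, near the 10% of all genes and below the 16.8% of genes averaging 1 CPM or more. Of the 73 nuclear oxidative phosphorylation genes tested, 0 were called higher and 10 lower, with a median difference of −0.15 (median effect 0.18 in ESCs and 0.01 in EpiLCs). Their differences lay below 0 for 63 of the 73. The shares called lower were 5.27% over all genes and 8.89% among genes averaging 1 CPM or more. With the transcript-length offsets 1 was called lower, with library size alone 2, and when each library was left out 6 to 15. The complex I carrier protein gene *Ndufab1* (0.18 and −0.39, difference −0.58) and the ATP synthase gene *Atp5f1c* (0.35 and −0.01, difference −0.35) were among the 10. Of the 13 mitochondrially encoded genes 2 were called higher and 0 lower (median 0.25), *mt-Nd2* (−0.45 and 0.29, difference 0.75) and *mt-Nd1* (−0.76 and −0.21, difference 0.55), and 0 higher and 0 lower with the transcript-length offsets. Mitochondrial transcripts made up between 0.763% and 1.26% of the counts of a library. The 70 ribosome biogenesis and RNA polymerase I genes, which had median effects below 0 in both states ( −0.36 and −0.43), had a median difference of −0.02, with 1 called higher and 5 lower, and 0 higher and 1 lower with the transcript-length offsets. Their share of calls was 8.57%, below the 10% of all genes. The polymerase subunit genes *Polr1b* (−1.16 and −0.76, difference 0.41) and *Polr1a* (−0.29 and −0.65, difference −0.36) were called in opposite directions. *Ndufab1* (−0.64), *mt-Nd2* (0.72), *mt-Nd1* (0.53), *Polr1b* (0.41) and *Polr1a* (−0.23) were not called with the transcript-length offsets. *mt-Nd1* lost the call in 8 (range 0.44 to 0.66) of the 12 fits that each left out 1 library. *mt-Nd2* and *mt-Nd1* were no longer called under robust estimation.

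Imprinted genes, expressed from 1 parental allele, had lower effects in EpiLCs in most called cases. Of the 29 imprinted genes tested, 2 were called higher and 9 lower, with a median difference of −0.32 (median effect 0.03 in ESCs and −0.24 in EpiLCs), and 1 higher and 5 lower with the transcript-length offsets. *H19*, a noncoding RNA of the Igf2 cluster, was at 3.72, 4.06 and 3.52 CPM in Neg ESCs and at 7.19, 8.23 and 8.62 in 3×KD ESCs. In EpiLCs *H19* was at 29.6, 31.8 and 30.7 CPM in Neg and at 17.9, 17.9 and 15.7 in 3×KD. *H19* lay above all Neg libraries in every 3×KD library of ESCs and below them in EpiLCs, with log2 effects of 1.09 and −0.84 and a difference of −1.93 (SE 0.13, adjusted p = 4.4e-08). *Magel2*, a gene of the Prader-Willi cluster, was at 1.51, 1.79 and 1.48 CPM in Neg ESCs and at 1.29, 0.915 and 0.719 in 3×KD ESCs. In EpiLCs *Magel2* was at 37.6, 26.8 and 35.3 CPM in Neg and at 6.89, 6.84 and 6.81 in 3×KD. *Magel2* lay below all Neg libraries in every 3×KD library of both states, with log2 effects of −0.69 and −2.28 and a difference of −1.59 (SE 0.29, adjusted p = 9.6e-04). For *Peg10*, a retrotransposon-derived gene, the log2 effect was 0.02 in ESCs and 1.28 in EpiLCs, a difference of 1.27 (SE 0.062, adjusted p = 1.1e-09). Of 33 Polycomb genes 4 were called higher and 6 lower (median −0.03), and 2 higher and 1 lower with the transcript-length offsets. Accessory subunits of the PRC2 complex went in opposite directions, *Phf19* (1.54 and 0.27, difference −1.27) and *Epop* (−1.15 and −0.08, difference 1.07). *Phf19* (−1.51) was not called with the transcript-length offsets.

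**Figure D5:**
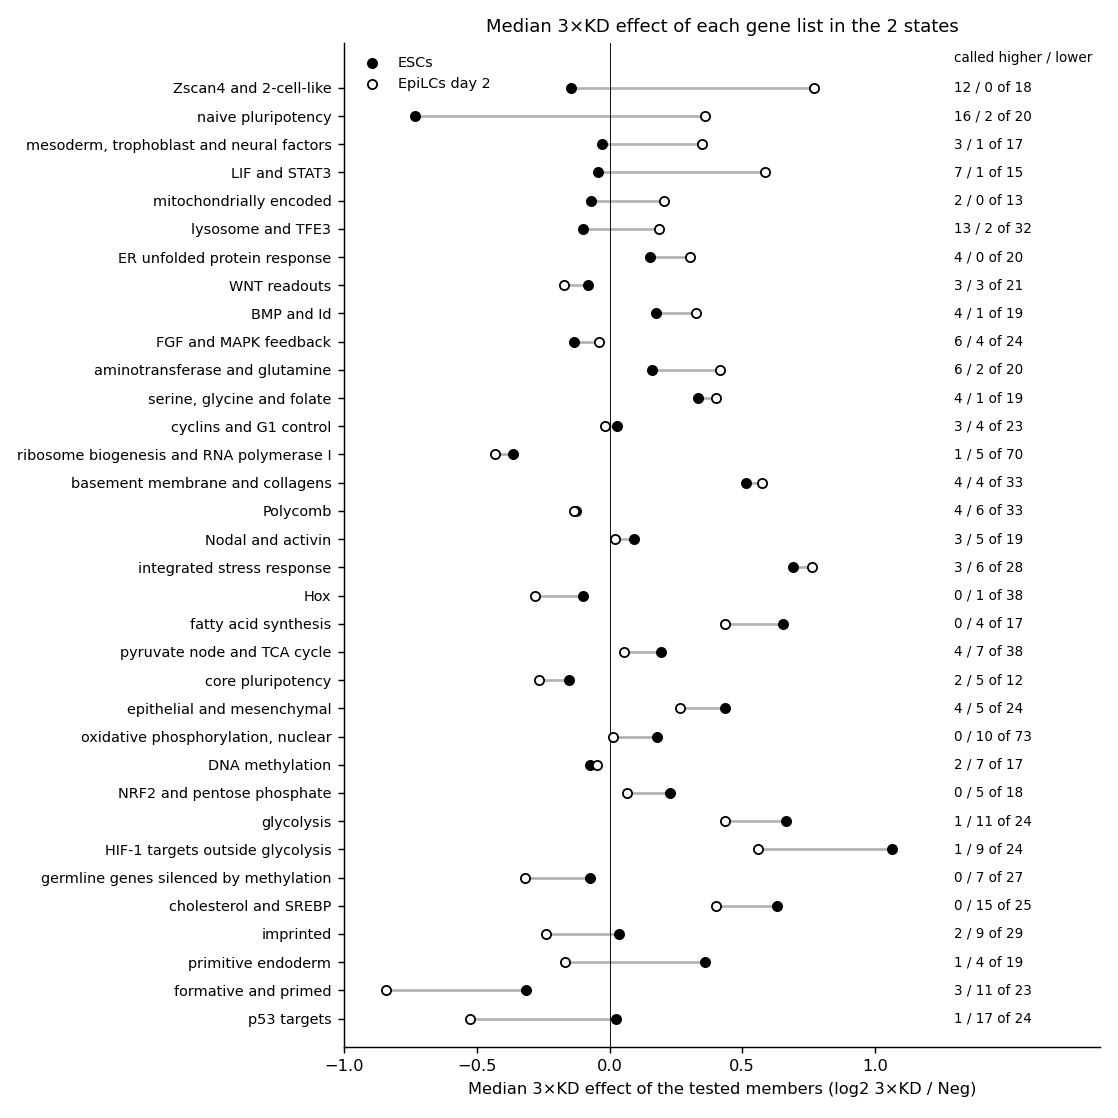
Median 3×KD effect (log2 3×KD over Neg) of the tested members of each of 34 gene lists in ESCs (filled) and EpiLCs day 2 (open), ordered by the median difference, with the members called higher and lower in the difference at the right. The naive list runs from −0.73 to 0.36 and the p53 list from 0.03 to −0.53, and the ribosome biogenesis list lies at −0.36 and −0.43.

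The same difference can be read as the change from ESCs to EpiLCs in 3×KD minus that in Neg, from the same libraries and therefore not as separate evidence. The median change of the naive list was −4.15 in Neg and −2.60 in 3×KD, and that of the formative and primed list 2.53 in Neg and 2.11 in 3×KD. By these medians both the naive decrease and the formative increase were smaller in 3×KD. The smaller naive decrease includes the lower level in 3×KD ESCs (median effect −0.73), beside a median effect of 0.36 in EpiLCs. The p53 targets changed by 0.27 and −0.13, and the 2-cell-like genes by −0.12 and 0.84. For *Dppa3* the change was −4.38 in Neg and −2.29 in 3×KD, for *Pou3f1* 6.40 and 4.23, and for *Gadd45g* 5.68 and 0.73. By chromosome, the median difference of genes averaging 1 CPM or more lay between −0.07 (X, 563 genes) and 0.03 (16, 454 genes) apart from the mitochondrial genome. Chromosome 16 had median effects of 0.30 and 0.30 and the 13 genes of Y −2.59 and −2.59 in ESCs and EpiLCs, so these shifts between the lines were alike in both states and nearly cancel in the difference (0.03 and 0.01).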

How the data were processed

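Total RNA was sequenced as rRNA-depleted, directional, single-end libraries by the study's methods (the labels' molecule field reads polyA). According to the submitters' processing notes the authors used bcl2fastq, Trim Galore 0.6.7, STAR 2.7.9a and Salmon 1.10.1. The deposited tables give per transcript an estimated count, a TPM value and an effective length. The TPM values and lengths that the authors deposited were used here only for average transcript lengths. Estimated counts were summed per gene with the deposited transcript-to-gene table and rounded to whole numbers. Genes with at least 10 counts over the 12 libraries were fitted with edgeR 4.0.16 (R 4.3.3, limma 3.58.1), TMM factors and 1 mean for each group over all 12 libraries, and contrasts were tested with glmQLFTest. Genes were called at a Benjamini-Hochberg adjusted p under 0.01, and the effect in 1 state also at an absolute log2 fold change above 0.58. CPM values use TMM-scaled library sizes. Depth ranged from 11221023 to 19652197 counts per library. Intervals on low counts are exact 95% intervals for the ratio of 2 Poisson counts, a floor of 3 counts stands for a group at 0, and both cover counting error only.

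Genes named are the 3 targets, the 10 largest called differences in each direction (mean of at least 1 CPM, annotated names), the 10 largest among genes called in opposite directions, up to 4 called members of each of 34 lists, every called member of the naive, formative and primed, 2-cell-like, LIF and STAT3, p53, glycolysis and cholesterol lists, and the cell type markers. The members and lists were chosen with earlier results of these data known. A symbol shared by several gene IDs stands for the ID with the higher mean. Overlapping and near-identical genes remain uncertain. Alternatives were DESeq2 1.42.0, other scalings and filters, transcript-length offsets, a replicate block, robust estimation, other thresholds and each library left out. The scripts were tested on simulated data. Motifs were searched on both strands of RefSeq promoters (GRCm38.p6), whereas gene positions and guide sites are on GRCm39, and no coordinate was converted. The guide of *Me2* is not shown, and some genes that these choices name are not reported here, though they entered the fits and the counts of their lists.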

Additional observations from a re-analysis of the deposited data

Results flagged for a closer look

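The 3×KD effect differed between ESCs and EpiLCs for 199 of the named genes by edgeR's interaction test (adjusted p under 0.01, n = 3 libraries a group), 82 with a positive and 117 with a negative log2 difference, and each is given here with its difference. No group has more than 3 samples, so no test for a sample far from the others of its group was made. Because these genes were named for their calls or their list, their number is not read against the 10% called over all genes. Outside the gene lists, *Trh* (3.91), *Ly6a* (3.44), *Trim16* (3.17) and *Chrna9* (2.83) were higher, and *Gadd45g* (−4.94), *Atp1a4* (−3.24), *Nrcam* (−3.03), *H2-Q2* (−2.95), *Efhd1* (−2.87) and *Crabp2* (−2.72) were lower. For the genes with a group at 0 or 1 count, the fitted difference depends on the prior count and is no bound: it was 21.28 for *Cwc22rt7*, 12.40 for *Obox4-ps21*, 10.65 for *Rnu1a1*, 4.73 for *Dnah9*, −6.86 for *Gbp2*, −6.50 for *Gbp2b*, −3.52 for *Clca1* and 16.50 for *ENSMUSG00000121782*.

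Of naive pluripotency genes, *Dppa3* (2.09), *Gbx2* (1.84), *Klf4* (1.40), *Zfp42* (1.32), *Manba* (1.31), *Esrrb* (1.23), *Nr5a2* (1.21), *Jam2* (1.17), *Fbxo15* (1.09), *Nanog* (0.95), *Tcl1* (0.88), *Klf2* (0.87), *Tfcp2l1* (0.84), *Tbx3* (0.84), *Tdh* (0.63) and *Klf5* (0.54) were higher, and *Dppa5a* (−0.37) and *Pecam1* (−0.36) were lower. Of formative and primed genes, *Etv4* (1.31) and *Grhl2* (0.46) were higher, and *Fgf15* (−2.86), *Pou3f1* (−2.17), *Sall2* (−1.65), *Pim2* (−1.44), *Sox11* (−1.20), *Sox3* (−1.003), *Dnmt3b* (−0.93), *Dnmt3a* (−0.82), *Nes* (−0.79), *Lef1* (−0.74) and *Zic5* (−0.38) were lower. Among core pluripotency genes, *Dppa4* (0.44) was higher, and *Rest* (−0.89), *Lin28a* (−0.59) and *Zfp281* (−0.42) were lower. Among 2-cell-like genes, *Tdpoz4* (1.78), *Zfp352* (1.69), *Sp110* (1.52), *Zscan4b* (1.18), *Zscan4e* (1.12), *Usp17lc* (1.05), *Usp17la* (0.99), *Zscan4d* (0.99), *Zscan4c* (0.98), *Usp17le* (0.97), *Zscan4a* (0.94) and *Zscan4f* (0.94) were higher. In the LIF and STAT3 pathway, *Il6st* (1.05), *Pim1* (0.82), *Stat3* (0.71) and *Jak2* (0.63) were higher, and *Pim3* (−0.21) was lower. In FGF signalling, *Dusp6* (1.56) was higher, and *Fgfr2* (−1.86) and *Fgf4* (−1.69) were lower. Among WNT readouts, *Sp5* (3.59) and *Axin2* (1.15) were higher, and *Fzd7* (−0.94) was lower. In Nodal and activin signalling, *Smad7* (0.66) and *Nodal* (0.61) were higher, and *Lefty1* (−1.38) and *Skil* (−1.05) were lower. In BMP signalling, *Id1* (2.36), *Id3* (2.01) and *Bmp4* (1.47) were higher, and *Id2* (−1.78) was lower. Among DNA methylation and methylation-silenced germline genes, *Tet2* (0.77) was higher, and *Tdrkh* (−0.94), *Tdg* (−0.74), *Ddx4* (−0.60), *Smc1b* (−0.56) and *Taf7l* (−0.50) were lower. Among genes of other lineages, *Cdx2* (3.08), *Tfap2c* (0.93) and *Tubb3* (0.67) were higher, and *Gata6* (−1.80), *Sox1* (−1.45), *Col4a2* (−0.79), *Lamb1* (−0.74) and *Lrp2* (−0.53) were lower. For epithelial, mesenchymal and basement membrane genes, *Cdh3* (0.99) and *Itgb5* (0.63) were higher, and *Cldn6* (−1.76), *Zeb2* (−1.12), *Krt19* (−0.86) and *Itga3* (−0.69) were lower. Of p53 targets, *Sesn1* (0.70) was higher, and *Pmaip1* (−1.63), *Plk3* (−1.39), *Cdkn1a* (−1.03), *Plk2* (−1.01), *Zmat3* (−0.73), *Tnfrsf10b* (−0.70), *Btg2* (−0.67), *Eda2r* (−0.66), *Mdm2* (−0.65), *Ccng1* (−0.62), *Aen* (−0.57), *Bbc3* (−0.55), *Phlda3* (−0.52), *Sesn2* (−0.39), *Gtse1* (−0.33), *Trp53inp1* (−0.32) and *Mdm4* (−0.26) were lower.

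Among cyclins and regulators of G1, *Myc* (2.38) was higher, and *Cdkn1c* (−1.44) and *Mycn* (−0.76) were lower. Of glycolysis genes, *Pfkm* (0.60) was higher, and *Eno3* (−1.18), *Slc16a3* (−0.996), *Ldhb* (−0.85), *Hk2* (−0.36), *Ldha* (−0.36), *Gapdh* (−0.36), *Tpi1* (−0.32), *Pkm* (−0.31), *Eno1* (−0.30), *Pgam1* (−0.22) and *Pfkl* (−0.20) were lower. Among genes of the pyruvate node and TCA cycle, *Idh2* (0.60) and *Pdk1* (0.54) were higher, and *Mpc1* (−0.61) and *Idh3b* (−0.41) were lower. Among hypoxia-inducible factor targets, *Adm* (−2.07), *Stc1* (−1.55), *Ndufa4l2* (−0.85) and *Plod2* (−0.59) were lower. For amino acid genes, *Asns* (1.39), *Bcat1* (1.16), *Slc7a3* (0.68), *Gcat* (0.60), *Glud1* (0.58) and *Amt* (0.43) were higher, and *Ddit4* (−1.13), *Stc2* (−0.68) and *Mthfd1l* (−0.39) were lower. Of cholesterol genes, *Dhcr7* (−0.49), *Idi1* (−0.48), *Cyp51* (−0.41), *Lss* (−0.40), *Nsdhl* (−0.36), *Msmo1* (−0.35), *Hmgcs1* (−0.33), *Fdft1* (−0.29), *Srebf2* (−0.27), *Stard4* (−0.27), *Srebf1* (−0.26) and *Fdps* (−0.24) were lower. For fatty acid, NRF2 and pentose phosphate genes, *Acsl4* (−1.18), *Txnrd1* (−0.55), *Acacb* (−0.54), *Scd2* (−0.53), *Gclc* (−0.50), *Srxn1* (−0.42), *Prdx1* (−0.35) and *Fads2* (−0.33) were lower. For the unfolded protein response and the lysosome, *Gpnmb* (5.08), *Tfeb* (0.98), *Hexa* (0.81), *Mitf* (0.79), *Xbp1* (0.50), *Manf* (0.50), *Hsp90b1* (0.44) and *Hspa5* (0.42) were higher. Among respiratory and ribosome biogenesis genes, *mt-Nd2* (0.75), *mt-Nd1* (0.55) and *Polr1b* (0.41) were higher, and *Ndufab1* (−0.58), *Dkc1* (−0.42), *Utp20* (−0.37), *Polr1a* (−0.36), *Atp5f1c* (−0.35), *Ndufv3* (−0.33) and *Ndufs7* (−0.33) were lower. Among Polycomb, Hox and imprinted genes, *Peg10* (1.27) and *Epop* (1.07) were higher, and *H19* (−1.93), *Magel2* (−1.59), *Phf19* (−1.27), *Hoxa5* (−1.15) and *Bcor* (−0.76) were lower.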

How the results depend on the processing

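Against 2553 called differences, DESeq2 gave 2403 (2235 shared, 10373 genes with no adjusted p), robust estimation 3132, no filter 3329, filterByExpr 2763, library size alone 2346, RLE factors 2547, upper-quartile factors 2694 and leaving out each library 2084 to 2575 (969 to 1156 higher and 1069 to 1548 lower). Library size alone called 1522 higher and 824 lower (64.9% higher against 47.4%), and transcript-length offsets called 731, 337 higher and 394 lower, with a larger SE. An adjusted p under 0.05 gave 4127 calls (1950 higher, 2177 lower) and, without the fold limit, 10142 in ESCs and 9694 in EpiLCs, while an absolute difference above 0.58 left 1161 (680 higher, 481 lower). No called difference was called in the opposite direction in any setting run. Of the 199 named calls, 107 held in every refit at an adjusted p under 0.01. In these refits 89 were lost in at least 1 setting other than leaving out a library, mostly with the offsets, and 24 without some library. These counts leave out the other thresholds, and a gene with no adjusted p in DESeq2 was not counted as lost. The limit of 0.58 on the absolute difference alone removed 63 of the 199. Signs turned, without a call in either direction, for *Pcx* (−0.096 with offsets), *Me2* (0.048 with library size alone, −0.061 to 0.010 over the left-out libraries) and *Otx2* (−0.020 to 0.55 over the left-out libraries), and the called *Zeb2* and *Hsp90b1* had 1.06 and −0.0070 with the offsets, not called. The cause was not tested. Transcripts at a few counts, such as those of *Sp5*, *Gbp2* and *Clca1* in 1 state, limit the size of their effects there.

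Libraries that share a replicate number did not deviate together (correlations of their deviations from the group means between −0.158 and 0.123 over the pairs of groups), so the numbers were not taken to pair the libraries. With the replicate number as a block 2321 differences were called, of which 2275 were among the 2553.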

Other observations

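Chaperones and regulators of the unfolded protein response in the endoplasmic reticulum were called at a share of 20%, against 10% of all genes and 16.8% of genes averaging 1 CPM or more. Of the 20 such genes tested, 4 were called higher and 0 lower, with a median difference of 0.18 (median effect 0.15 in ESCs and 0.30 in EpiLCs), and 0 higher and 0 lower with the transcript-length offsets. The called genes were the transcription factor gene *Xbp1* (−0.10 and 0.40, difference 0.50), the secreted factor gene *Manf* (−0.28 and 0.22, difference 0.50) and the chaperone genes *Hspa5* (−0.24 and 0.17, difference 0.42) and *Hsp90b1* (0.28 and 0.72, difference 0.44), and none of them was called with the offsets. In the epithelial and mesenchymal list 4 of 24 were called higher and 5 lower (median −0.14), and 0 higher and 2 lower with the transcript-length offsets. *Cldn6*, a tight junction claudin, was at 1.86, 1.93 and 1.78 CPM in Neg ESCs and at 6.64, 5.79 and 6.21 in 3×KD ESCs. In EpiLCs *Cldn6* was at 8.19, 6.78 and 7.59 CPM in Neg and at 8.005, 7.86 and 6.43 in 3×KD. *Cldn6* lay above all Neg libraries in every 3×KD library of ESCs and overlapped between the groups in EpiLCs, with log2 effects of 1.74 and −0.02 and a difference of −1.76 (SE 0.19, adjusted p = 7.4e-06). The cadherin gene *Cdh3* (0.03 and 1.03, difference 0.99) was called higher and the keratin gene *Krt19* (1.52 and 0.67, difference −0.86) lower, and the repressor gene *Zeb2* (0.33 and −0.79, difference −1.12) was called lower with a turned sign under the offsets. Of 33 basement membrane and collagen genes 4 were called higher and 4 lower, with the integrin genes *Itgb5* (0.27 and 0.90, difference 0.63) and *Itga3* (1.05 and 0.36, difference −0.69) in opposite directions, and 0 higher and 0 lower with the transcript-length offsets. *Cdh3* (0.95), *Zeb2* (1.06), *Itgb5* (1.203) and *Itga3* (−0.56) were not called with the transcript-length offsets. *Krt19* was not called without Neg EpiLCs replicate 3 (−0.77).

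Developmental and chromatin genes added few calls. Of 38 Hox genes 1 was called (2.63%, against 10% of all genes), *Hoxa5* (−0.22 and −1.37, difference −1.15), lower (median of the list −0.09). The neuronal tubulin gene *Tubb3* (−0.62 and 0.05, difference 0.67) was called higher, and the Polycomb gene *Bcor* (−0.27 and −1.03, difference −0.76) lower. Among germline genes, *Tdrkh* (0.57 and −0.36, difference −0.94) and *Smc1b* (1.18 and 0.63, difference −0.56) were called lower. Of the ribosome biogenesis genes, the pseudouridine synthase gene *Dkc1* (0.62 and 0.19, difference −0.42) and the processome gene *Utp20* (−0.55 and −0.91, difference −0.37) were called lower, and of the fatty acid genes the carboxylase gene *Acacb* (0.97 and 0.44, difference −0.54). *Hoxa5* (−1.16), *Tubb3* (0.55), *Bcor* (−0.86), *Tdrkh* (−1.11), *Smc1b* (−0.41), *Utp20* (−0.29), *Acacb* (−1.12), *Ndufv3* (−0.47) and *Ndufs7* (−0.29) were not called with the transcript-length offsets. *Hoxa5* lost the call in 7 (range −1.34 to −1.04), *Tdrkh* lost the call in 9 (range −1.12 to −0.82), *Smc1b* lost the call in 5 (range −0.67 to −0.43), *Ndufv3* lost the call in 7 (range −0.39 to −0.27) and *Ndufs7* lost the call in 9 (range −0.38 to −0.31) of the 12 fits that each left out 1 library. *Tdrkh* was no longer called under a replicate block and library size alone as the scaling. *Smc1b* was no longer called under robust estimation and library size alone as the scaling. *Ndufv3* was no longer called under a replicate block, library size alone as the scaling and DESeq2. *Ndufs7* was no longer called under RLE factors, a replicate block, library size alone as the scaling and DESeq2.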
